A study of Homo sapiens with 5 samples.

Results

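The 10 genes described here, all known from germ cells, were followed through treatment of a human cell line with a DNA demethylating drug and through the month after it: DAZL, MAEL, TDRD1, TDRD12, GTSF1, TEX14, DDX25, USP26, RHOXF1 and CTCFL. They were chosen by name with their measured values already known, and all 10 were found among the 20220 usable entries of the deposited RefSeq gene table. The values that chose them are the 3 group values of each gene, so their levels and calls are given as a description and no test was added. HEK 293T, the line used, derives from human embryonic kidney and carries a viral large T antigen; the labels call it non-malignant. Its cells were grown without drug (control, 2 libraries), collected after 3 days in 1 µM 5-aza-2'-deoxycytidine (treated, 2 libraries), or collected after 30 more drug-free days (recovery, 1 library). Per the labels cells were grown in triplicate, but nothing says which cultures gave the libraries. Each gene has 1 FPKM value per group (fragments scaled to transcript length and library depth, so that levels of different genes can be set side by side), with the replicates already combined by the authors. The spread between libraries is therefore not shown by any value below. In recovery there is only 1 library. Where 3 values of a gene follow each other, they are those of control, treated and recovery, in this order.

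5-aza-2'-deoxycytidine is built into replicating DNA and traps DNA methyltransferases there, so that CpG methylation is diluted as cells divide. Many germ cell genes are methylated at their promoters and silent in somatic cells. PIWI-interacting RNAs (piRNAs) are small RNAs that guide PIWI proteins to silence transposons in the germline, and Tudor domain proteins assemble the granules in which they are made and loaded. Of the 10 genes, TDRD1 and TDRD12 encode Tudor domain proteins of this pathway, MAEL and GTSF1 encode further factors needed for transposon silencing, and DAZL and DDX25 encode an RNA-binding protein and a DEAD-box RNA helicase of germ cells. TEX14 is needed for the bridges that join germ cells, USP26 is an X-linked ubiquitin protease of testis, RHOXF1 is an X-linked homeobox gene and CTCFL (BORIS) is the testis paralogue of the chromatin insulator protein CTCF.

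The promoters are shown because the methyltransferases that the drug traps act on CpG sites. RefSeq promoter windows (build GRCh38.p14, 250 bases before to 50 bases after each transcription start, 14 windows) were found for 8 of the 10 genes, all but TEX14 and USP26. In the stretches of 250 bases before the start that follow, capitals mark every CpG and the motif CACGTG.
DAZL, first window, chr3:16605424-16605673, minus strand: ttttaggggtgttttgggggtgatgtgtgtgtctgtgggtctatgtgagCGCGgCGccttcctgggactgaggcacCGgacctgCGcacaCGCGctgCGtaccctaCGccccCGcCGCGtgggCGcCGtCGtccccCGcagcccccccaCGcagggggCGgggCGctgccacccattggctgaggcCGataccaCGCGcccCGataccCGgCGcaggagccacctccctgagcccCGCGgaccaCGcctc
TDRD12, chr19:32719517-32719766, plus strand: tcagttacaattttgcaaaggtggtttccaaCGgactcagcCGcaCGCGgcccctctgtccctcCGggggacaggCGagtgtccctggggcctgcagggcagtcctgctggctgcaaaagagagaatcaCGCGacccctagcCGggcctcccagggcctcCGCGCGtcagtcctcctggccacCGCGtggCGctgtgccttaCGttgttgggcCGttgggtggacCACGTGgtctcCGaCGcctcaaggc
GTSF1, chr12:54473603-54473852, minus strand: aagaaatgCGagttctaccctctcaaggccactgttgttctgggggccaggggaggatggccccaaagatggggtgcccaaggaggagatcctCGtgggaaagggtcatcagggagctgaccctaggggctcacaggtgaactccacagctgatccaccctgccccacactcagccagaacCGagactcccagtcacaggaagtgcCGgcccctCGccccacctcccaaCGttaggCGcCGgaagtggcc
The DAZL stretch holds 28 CpG, the TDRD12 stretch 20 and the GTSF1 stretch 8. Over the whole 300-base windows the 10 genes' promoters ran from 2 CpG (CTCFL, first window) to 60 CpG (MAEL, first window), and the median over all 35116 windows of the table was 14. At least 1 window with 15 CpG or more was found for 6 of the 8 genes, against 52.0% of all genes in the table. GTSF1 with 10 CpG and RHOXF1 with 6 CpG were the exceptions, so the set does not share a CpG-rich promoter.

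One motif recurred. CACGTG, an E-box that reads the same on both strands, was present in 6 of the 14 windows and in 5 of the 8 genes with a window. Of all RefSeq windows, 7.26% held it, among windows with 15 CpG or more 10.1%, and among genes with any window 8.77%. Of genes with at least 2 windows, as DAZL, MAEL, TDRD1, DDX25 and CTCFL have, 15.2% held it. CTCFL, with 3 windows, did not hold it. The stretches of 30 bases around it are shown with the motif in capitals.
DAZL, second window, chr3:16604927-16604956, minus strand: tgcctcgccggcCACGTGcaagggccacgg
MAEL, second window, chr1:166989057-166989086, plus strand: ctccaggcctccCACGTGacaatgcctccg
TDRD1, outer match, chr10:114179210-114179239, plus strand: aggcggagggaaCACGTGggcacattgagt
TDRD1, inner match, chr10:114179230-114179259, plus strand: cacattgagttgCACGTGgacgcggagtgc
TDRD12, chr19:32719730-32719759, plus strand: cgttgggtggacCACGTGgtctccgacgcc
DDX25, second window, chr11:125904473-125904502, plus strand: cggtggtggaagCACGTGctgggggcggga
The match begins 154 bases before the start in DAZL, 211 in MAEL, 65 and 45 in the first TDRD1 window, 25 in TDRD12 and 23 in DDX25. The first and second TDRD1 windows overlap and hold the same matches, so the 6 windows are 5 separate promoters. DDX25, whose level went the other way from that of the other 4, holds the motif as well. TCCCGC, the core of an E2F site, was searched on both strands and was present in 4 of the 8 genes (DAZL, MAEL, TDRD12 and DDX25), against 30.4% of all genes with a window; no match overlapped CACGTG. These matches describe the sequence only, and binding was not measured here.

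Of the 10 genes, 9 were near silent in control cells and stood at 5.56 to 76.3 FPKM after 3 days of drug. The other gene, DDX25, was expressed in control and nearly absent after treatment. The set's median level was 0.122, 12.3 and 3.01 FPKM in the 3 groups (control, treated, recovery). On the scale of log2(FPKM + 1) the median difference was 3.73 for treated minus control and 1.91 for recovery minus control, beside medians of 0 over all entries. Control values under 0.5 FPKM with treated values of 5 FPKM or more were found for 153 entries, 0.757% of the table, and 9 of those were genes of this set, which were chosen for such values.

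**Figure D1:**
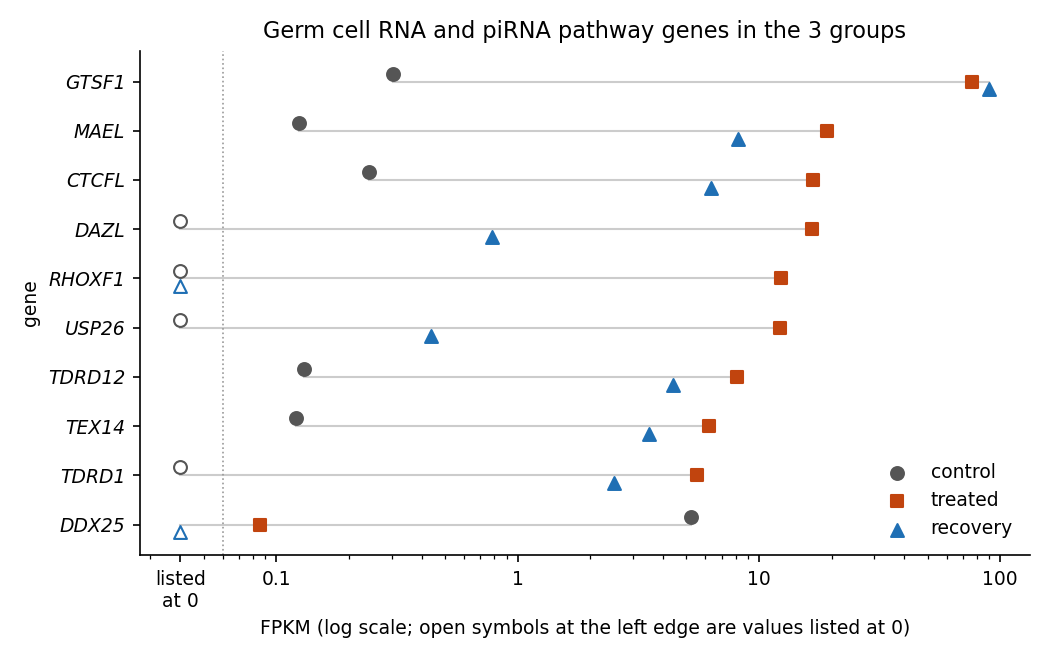
FPKM of the 10 genes (x axis, log scale) in control (circles), treated (squares) and recovery (triangles); open symbols at the left edge are values listed at 0. In 9 genes the treated value lies right of the control value, and in DDX25 it lies left of it; recovery values range from 0 to 90.1 FPKM.

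Among the piRNA pathway genes GTSF1 was the highest. It encodes a small zinc finger protein that helps PIWI proteins cut or silence their targets, and it stood at 0.303 FPKM before the drug, 76.3 FPKM after 3 days of it and 90.1 FPKM in recovery. That is a ratio of 252 for treated and 297 for recovery over control, and the differences held ranks 19 and 21 of 20220 entries. MAEL, a factor of germ granules named after the fly gene maelstrom, was at 0.124, 19.1 and 8.23 FPKM. Its treated value was 154 times and its recovery value 66.6 times the control value. TDRD12, which joins a Tudor domain to a helicase domain, was at 0.131, 8.11 and 4.41 FPKM. TDRD1, a scaffold protein that binds methylated PIWI proteins, was listed at 0, 5.56 and 2.50 FPKM. All 4 genes were thus higher in both drug-exposed groups than in control, and GTSF1 was the only gene of the 10 whose recovery value exceeded its treated value.

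Among the other genes DAZL, which binds and regulates messenger RNAs of germ cells, was listed at 0, 16.6 and 0.783 FPKM. USP26 was listed at 0, 12.2 and 0.438 FPKM, and RHOXF1 at 0, 12.3 and 0 FPKM. These 3 genes were close to their control values again after the month without drug. CTCFL had a control value of 0.242 FPKM, a treated value of 16.7 FPKM (69.2-fold) and a recovery value of 6.30 FPKM (26.1-fold), and TEX14 was at 0.121, 6.20 (51.5-fold) and 3.51 FPKM (29.1-fold). CTCF itself, which most cells express, was at 25.2, 20.3 and 19.4 FPKM. DDX25, a helicase that exports and stores messenger RNAs in spermatids, had values of 5.21, 0.0858 and 0 FPKM.

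At q under 0.05 in the authors' deposited table, the number of the 10 genes called higher in treated cells was 4, and 0 were called lower. They were DAZL, TDRD1 and USP26 (each with q = 0.0147) and RHOXF1 (q = 0.0239). The background is 0.603% of all entries called higher, or 1.08% of entries with q under 1, and for lower calls 0.153% and 0.275%. In recovery 1 gene was called higher, TDRD1, and 1 was called lower, DDX25 (both with q = 0.0147 in the authors' deposited table), where the backgrounds are 0.495% and 0.247% of all entries, or 0.895% and 0.447% of those with q under 1. As the members were chosen on these contrasts, nothing is read from the difference to the background. Of the genes not called CTCFL lay nearest to the threshold, with q = 0.130 for treated and q = 0.142 for recovery in the authors' deposited table.

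The calls in this set divide by whether the control was listed at 0. All 4 genes at 0 in control were called higher in treated cells, and 0 of the 5 genes with a control value between 0.121 and 0.303 FPKM were, although their treated values were 51.5 to 252 times as high. GTSF1, MAEL and TDRD12 had q = 0.939 and TEX14 q = 0.927 in the authors' deposited table. The same division runs through the whole table. Among entries with q under 1, 35.8% of those listed at 0 in control were called higher and 0.146% of those above 0. Where the control was above 0 and the treated value at least 20 times as high, 1 of 148 entries was called (0.676%). In recovery, where TDRD1 with a control value of 0 was the 1 gene called higher, the shares were 37.2%, 0.0366% and 0.84% in the same order. The direction of DDX25 shows the same division: it was not called at a treated value of 0.0858 FPKM and was called at a recovery value of 0. Of entries with q under 1, 34.9% of those listed at 0 in treated cells were called lower there, and 46.5% of those listed at 0 in recovery. A missing call for GTSF1, MAEL, TDRD12, TEX14 or CTCFL is therefore no sign that its level stayed the same.

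Low FPKM values step in whole fragments, and this gave the number of fragments behind several of these genes. One fragment was worth 0.757 times as much in treated as in control cells and 1.53 times as much in recovery, so the treated group held 1.32 times and the recovery group 0.652 times as many fragments as the control. With these values TDRD12 resolved into 1 fragment in control, 82 in treated cells and 22 in recovery. GTSF1 resolved into 1, 333 and 194 fragments, TEX14 into 1, 68 and 19, and DDX25 into 46, 1 and 0. USP26 resolved into 0, 113 and 2 fragments. For TDRD1 the smallest numbers were 0, 9 and 2, but these are likely a fraction of the true ones, since 1 control fragment would then be worth 0.816 FPKM, against 0.113 to 0.303 FPKM for the other 5 genes. For these 6 genes the largest distance from a whole number was 0.0084 fragments. The numbers are the smallest that fit; a common multiple of them would give the same FPKM. Such a match within 0.02 fragments was found for 8.80% of the 11983 entries above 0 in all groups and for 70.4% of the 1695 above 0 in 2 groups. MAEL, DAZL and CTCFL gave no whole numbers, and RHOXF1 has a value in 1 group only.

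Counting intervals follow from these fragments. They cover counting error alone and leave out the spread between libraries. They take the smallest numbers as true, and a multiple of them would give narrower intervals. The treated over control ratio was 252 for GTSF1 (exact Clopper-Pearson 95% interval 44.9 to 9983), 62.1 for TDRD12 (10.8 to 2481) and 51.5 for TEX14 (8.93 to 2062). With a single control fragment the size of the ratio is known only within a wide range. The genes were chosen with these values known, so an interval that leaves out equal levels is no added support for a difference. In recovery the ratios to control were 297 for GTSF1 (52.8 to 11807), 33.7 for TDRD12 (5.45 to 1392) and 29.1 for TEX14 (4.63 to 1210). DDX25 was 60.8 times as high in control as in treated cells (10.4 to 2452).

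What remained after the month without drug differed from gene to gene. Recovery values were 118% of the treated value for GTSF1, 56.6% for TEX14, 54.3% for TDRD12, 45.0% for TDRD1, 43.2% for MAEL and 37.7% for CTCFL. They were 4.72% for DAZL, 3.59% for USP26 and 0% for RHOXF1. No gene lay between 4.72% and 37.7%. Of the 10 genes, the 4 of the piRNA pathway were all in the upper group and both X-linked ones in the lower, but neither division holds beyond them. Other piRNA pathway genes near 0 in control went both ways, at treated values of 2.43 FPKM or less. Shares were low for TDRD9 (7.69%) and TDRD6 (5.85%) and 0% for STK31, PIWIL1, ASZ1, PNLDC1, FKBP6 and DNMT3L. They were 85.5% for TDRD5, 81.0% for MORC1, 75.8% for HENMT1 and 40.5% for DDX4. All of these genes were picked after their values were seen. Among the 144 entries outside the set with control under 0.5 FPKM and treated at 5 FPKM or more, a comparison group chosen after the values were seen, the median was 36.3% (quartiles 11.3% and 78.1%). These entries include genes of microRNAs, with shares from 0% (MIR320A) to 270% (MIR8072), so the quartiles are not those of messenger RNAs alone. Of the 144 entries, 20.1% lay under 10%, so both kinds of course were found outside the set. The 26 X-linked entries among them ranged from 0% to 118% with a median of 25.8%, and 7 of the 26 lay under 10%. By counting error alone, the treated over recovery ratio of USP26 was 27.9 (exact 95% interval 7.54 to 233), that of TDRD12 1.84 (1.14 to 3.09) and that of TEX14 1.77 (1.05 to 3.11). The interval included equal levels for GTSF1 (0.847, 0.708 to 1.02). For TDRD1 the ratio was 2.22, and no interval is given because its fragment numbers are in doubt. Fewer cells that express a gene and less RNA per cell cannot be told apart in these bulk libraries.

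**Figure D2:**
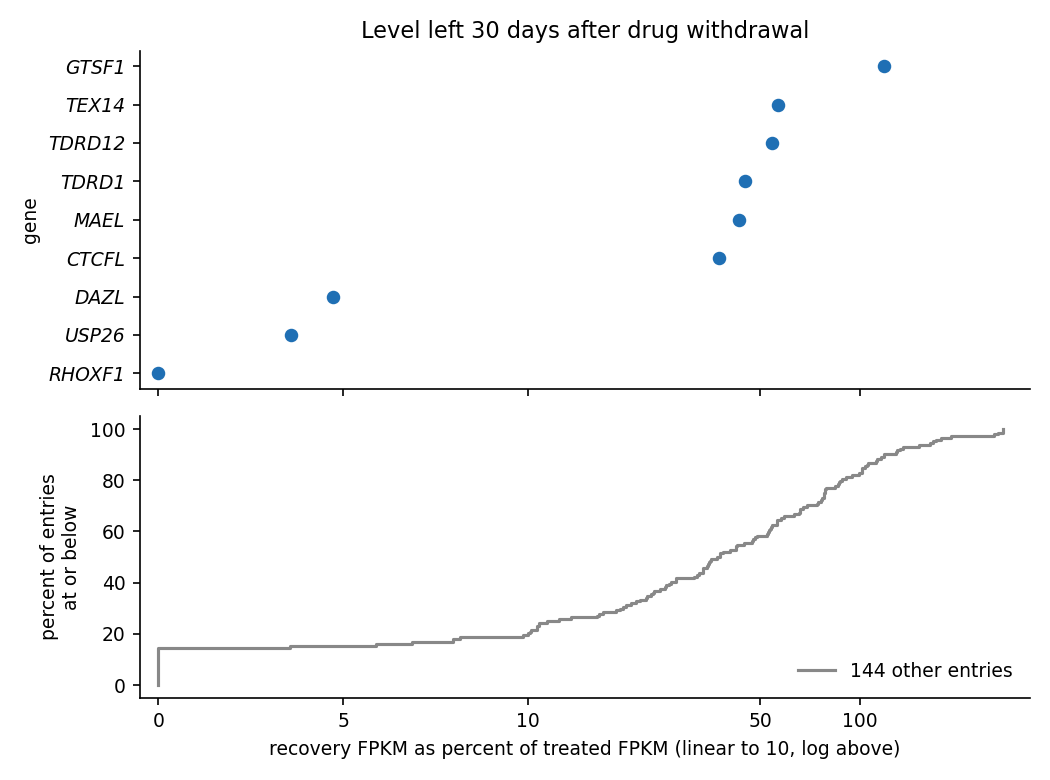
Recovery FPKM as a percent of treated FPKM (x axis, linear to 10 and logarithmic above) for the 9 genes above control in treated cells (upper panel, 1 point per gene) and as a cumulative percent of the 144 entries outside the set (lower panel). RHOXF1, USP26 and DAZL lie under 5% and the other 6 genes at 37.7% or more.

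The other genes of the piRNA pathway had no call. Of 38 listed genes 32 had an entry, and in treated cells 1 was called higher (TDRD1), 0 were called lower and 31 were not called. Over all entries 0.603% were called higher and 0.153% lower. Over the 28 that are not in the set, 0 were called in either comparison and the median log2(FPKM + 1) difference was 0.13 for treated and 0 for recovery, beside 0 over all entries. Those of the 28 with q under 1 were all above 0 in control. Of such entries 0.146% were called higher in treated cells and 0.0366% in recovery. The missing calls are therefore no sign that the levels of the 28 stayed the same. Of these 28 genes 16 were above and 10 below control in treated cells. The PIWI genes themselves were low in all groups. PIWIL1 was at 0, 0.162 and 0 FPKM, PIWIL2 at 0.485, 3.66 and 0.826 FPKM, and PIWIL4 at 1.73, 0.701 and 1.14 FPKM. DDX4 (VASA), a defining RNA helicase of germ cells, was at 0, 0.934 and 0.378 FPKM. TDRD9, a Tudor domain helicase, was at 0.0406, 2.43 and 0.187 FPKM, which resolved into 1, 79 and 3 fragments. STK31, a Tudor domain kinase, was at 0, 1.71 and 0 FPKM. These 6 genes were picked after their values were seen. Outside the set, the 3 highest of the list in treated cells were HSP90AA1, a chaperone (203, 408 and 154 FPKM), SND1, a Tudor domain nuclease (63.8, 65.6 and 84.1 FPKM), and PRMT5, the arginine methyltransferase that prepares PIWI proteins for Tudor binding (58.3, 53.5 and 46.0 FPKM). They are expressed in most cell types and had no call.

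**Figure D3:**
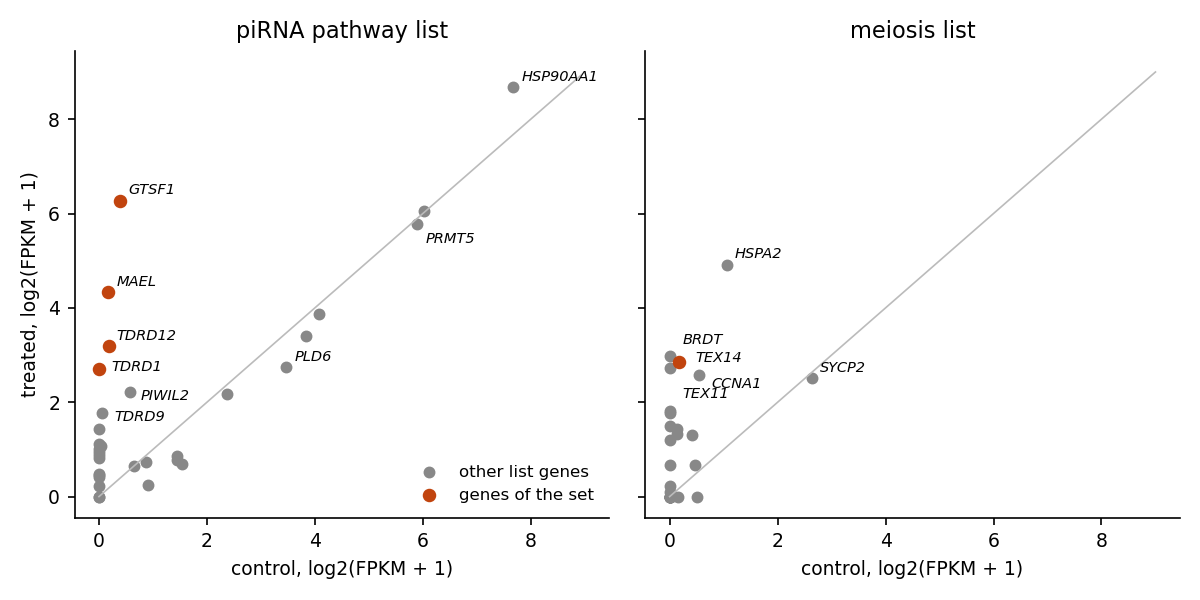
Control against treated level, both as log2(FPKM + 1), for the piRNA pathway list (left) and the meiosis list (right). Each point is 1 gene, the line marks equal levels, and genes of the set are in red. GTSF1, MAEL, TDRD12 and TDRD1 stand above most of the other piRNA pathway genes with control values near 0.

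Germ cell RNA-binding proteins, 30 of 34 listed with an entry, included 2 genes called higher in treated cells, DAZL and RBMXL2, and 0 called lower. Over all entries 0.603% were called higher and 0.153% lower. Of the 30 genes 17 were at 0 in control. Over all entries at 0 in control with q under 1, 35.8% were called higher. Of the 17 only DAZL and RBMXL2 had q under 1, so that share does not apply to all 17. RBMXL2, a testis RNA-binding protein, was at 0, 3.13 and 0 FPKM with q = 0.0239 per the authors' deposited table. The list's median difference was 0.04 for treated and 0 for recovery, and 8 of its genes were at 0 in all groups. DDX25 was the 1 gene of the list called lower in recovery, beside 0.247% of all entries. Among the highest without a call, YBX3 (135, 139 and 99.1 FPKM) and PUM2 (19.3, 22.8 and 18.3 FPKM) are RNA-binding proteins found in many tissues. PUM2, which binds DAZL in germ cells, was thus present in all groups at a like level.

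For meiosis genes, 28 of 32 with an entry, 2 were called higher in treated cells, 1 was called higher in recovery and 0 were called lower. Over all entries 0.603% were called higher in treated cells and 0.495% in recovery. Of the 28 genes 18 were at 0 in control. Among all such entries with q under 1 the shares called higher were 35.8% and 37.2%. Of the 18 only SYCE1, HORMAD1, TEX11 and BRDT had q under 1 for treated, and only SPATA22 for recovery. Those shares therefore do not apply to all 18. BRDT, a testis bromodomain protein, was at 0, 6.85 and 1.61 FPKM, and TEX11, an X-linked crossover factor, at 0, 5.57 and 0 FPKM (treated q = 0.0147 for each per the authors' deposited table). SPATA22, a meiotic recombination factor, was at 0, 1.28 and 5.29 FPKM and was the call in recovery. Without a call, the heat shock protein HSPA2 was at 1.08, 29.2 and 3.20 FPKM, the cyclin CCNA1 at 0.451, 4.95 and 4.67 FPKM and the axial element protein SYCP2 at 5.23, 4.72 and 4.19 FPKM. The list's median difference was 0.22 for treated and 0.09 for recovery. PRDM9 and SPO11, which set and make meiotic breaks, were at 0 in all groups; both were picked after their values were seen.

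TEX14 acts in germ cells by blocking abscission, the last cut of cell division. The 9 other genes of the abscission list had no call in either comparison, and their median difference was -0.10 for treated and -0.32 for recovery. RACGAP1 (71.7, 63.1 and 57.3 FPKM), TSG101 (58.1, 82.3 and 53.9 FPKM) and ANLN (55.8, 63.8 and 40.7 FPKM) were its highest in treated cells. CTCF and the cohesin and cofactor genes around CTCFL, 9 of 10 with an entry, likewise had 0 calls. All genes of both lists were above 0 in control. Of such entries with q under 1, 0.146% were called higher in treated cells and 0.0366% in recovery. Lower calls were 0.275% and 0.447% of entries with q under 1, so nothing is read from the missing calls. YBX1 was at 338, 389 and 356 FPKM, STAG2 at 89.8, 84.1 and 114 FPKM and SMC3 at 65.7, 76.5 and 56.0 FPKM.

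Beside USP26 and RHOXF1, the list of testis ubiquitin proteases and X-linked testis regulators (14 of 16 with an entry) held 1 more call in treated cells, TKTL1, a transketolase-like gene (2.42, 100.1 and 16.3 FPKM, with q = 0.0329 per the authors' deposited table). The autosomal relative USP37 was at 10.3, 8.91 and 8.05 FPKM and USP29 was at 0 throughout. RHOXF2B, next to RHOXF1 and a near copy of another gene of the cluster, was at 0, 0.767 and 0 FPKM, a value that is uncertain because fragments of such copies cannot be assigned with certainty. ZFX (53.7, 43.7 and 45.1 FPKM) and TAF7L (13.0, 12.1 and 7.62 FPKM) had no call. The list's median difference was 0.55 for treated and 0 for recovery. Its calls in treated cells, 3 of 14 genes, stand beside 0.603% of all entries called higher. Of the 14 genes 9 were at 0 in control. Over all entries at 0 in control with q under 1, 35.8% were called higher. Of the 9 only USP26, RHOXF1 and FTHL17 had q under 1, so that share does not apply to all 9.

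Repressors that keep germline genes silent in somatic cells were also listed, among them the E-box and E2F proteins MGA and E2F6 and the DNA methyltransferases. All 25 names but MAX had an entry, and 0 of 24 were called in either comparison. Of entries above 0 in control with q under 1, 0.146% were called higher in treated cells and 0.0366% in recovery. Lower calls were 0.275% and 0.447% of entries with q under 1. Having 0 calls is thus the usual outcome for genes at such levels, and nothing is read from it. The median difference was 0.21 for treated and -0.23 for recovery. HDAC1 (164, 105 and 119 FPKM), TRIM28 (91.6, 118 and 136 FPKM) and CBX3 (72.4, 70.7 and 82.4 FPKM) were the highest in treated cells. Picked for their known roles, MGA was at 16.4, 20.2 and 13.8 FPKM and E2F6 at 9.24, 6.29 and 3.81 FPKM. The drug's own targets were at 43.5, 53.5 and 51.4 FPKM (DNMT1), 5.16, 9.18 and 10.3 FPKM (DNMT3A) and 16.0, 25.8 and 13.7 FPKM (DNMT3B). All 24 genes were above 0 in every group.

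Markers of later germ cells and of testis somatic cells gave the frame for these levels. In the spermatid and sperm list 0 of 19 genes were called, and the summed level was 56.2, 54.8 and 56.4 FPKM. The protamines PRM1 and PRM2 and the transition proteins TNP1 and TNP2 were at 0 in all groups, while ODF2 (24.7, 34.8 and 31.9 FPKM), CABYR (13.2, 11.7 and 10.4 FPKM) and LDHC (14.4, 3.13 and 9.93 FPKM) were its highest. Sertoli and Leydig markers, 13 of 15 with an entry, summed to 17.2, 21.5 and 15.5 FPKM, with 0 called higher and CYP17A1, a steroid enzyme, called lower in both comparisons (2.66, 0 and 0 FPKM, with q = 0.0239 for each per the authors' deposited table). Over all entries 0.153% were called lower in treated cells and 0.247% in recovery, and 0.603% and 0.495% were called higher. WT1 (4.82, 4.86 and 2.55 FPKM), SOX9 (1.39, 4.35 and 2.66 FPKM) and INHBB (4.25, 3.83 and 5.29 FPKM) were the highest of the Sertoli and Leydig markers without a call. Of 12 genes known from HEK 293T cells 11 had an entry. In control 4 of these were listed at 0, IRS4, PAX2, NEFM and DBH. VIM stood there at 316 FPKM, KRT18 at 231 FPKM, NEFL at 28.9 FPKM, CDH2 at 24.8 FPKM and LIN28B at 21.2 FPKM. EPAS1 at 8.13 FPKM and GATA3 at 0.904 FPKM complete the genes with an entry. IRS4 was at 28.0 FPKM in recovery, so a control value of 0 does not always match what is known of the line. IRS4 and NEFM were called higher in treated cells, 2 of the 11 genes beside 0.603% of all entries. NEFM was at 0, 4.79 and 0.0924 FPKM.

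The authors' deposited table marks some entries under a methylation heading, with no word on how it was set. GTSF1, TDRD1 and TDRD12 carry the mark, 3 of the 10 genes, against 14.1% of all entries and 19.6% of the 153 entries with control under 0.5 FPKM and treated at 5 FPKM or more. All 3 belong to the piRNA pathway and had recovery values of 45.0% of the treated value or more. This did not hold for the 5 other marked genes of the piRNA pathway list. Their recovery values ran from 0% (STK31) and 7.69% (TDRD9) to 85.5% (TDRD5) of the treated value. Unmarked genes of the set that were higher in treated cells ran from 0% (RHOXF1) to 56.6% (TEX14). TEX14 alone carries the authors' mark headed expression, which 12.8% of entries have.

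Within 100 kb of the 10 genes lay 33 other RefSeq entries, of which 1 (3.03%, beside 0.603% of all entries for treated) was called higher in treated cells and in recovery, PDE1B, a phosphodiesterase 75.8 kb from GTSF1 (0, 1.93 and 2.21 FPKM, with q = 0.0147 for each per the authors' deposited table). Within 50 kb 0 of 19 entries were called. In the 12 neighbours above 5 FPKM in control the treated over control ratio lay between 0.602 and 1.36. ILDR2, 258 bases from MAEL (chromosome 1, 166944819 to 166991449, hg19), was at 3.71, 5.36 and 2.61 FPKM. RAD51C, a recombination gene 518 bases from TEX14 (chromosome 17, 56634038 to 56769416), was at 94.2, 75.8 and 90.2 FPKM. HYLS1, 1145 bases from DDX25 (chromosome 11, 125774261 to 125793006), was at 7.69, 10.4 and 2.75 FPKM, so its treated value was above control where that of DDX25 was below. The other entries are TDRD1 (chromosome 10, 115939029 to 115992063), GTSF1 (chromosome 12, 54849736 to 54867386), TDRD12 (chromosome 19, 33210679 to 33281714), CTCFL (chromosome 20, 56071021 to 56100708), DAZL (chromosome 3, 16628301 to 16647006), and RHOXF1 and USP26 (X chromosome, 119243011 to 119249847 and 132159507 to 132162300).

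**Figure D4:**
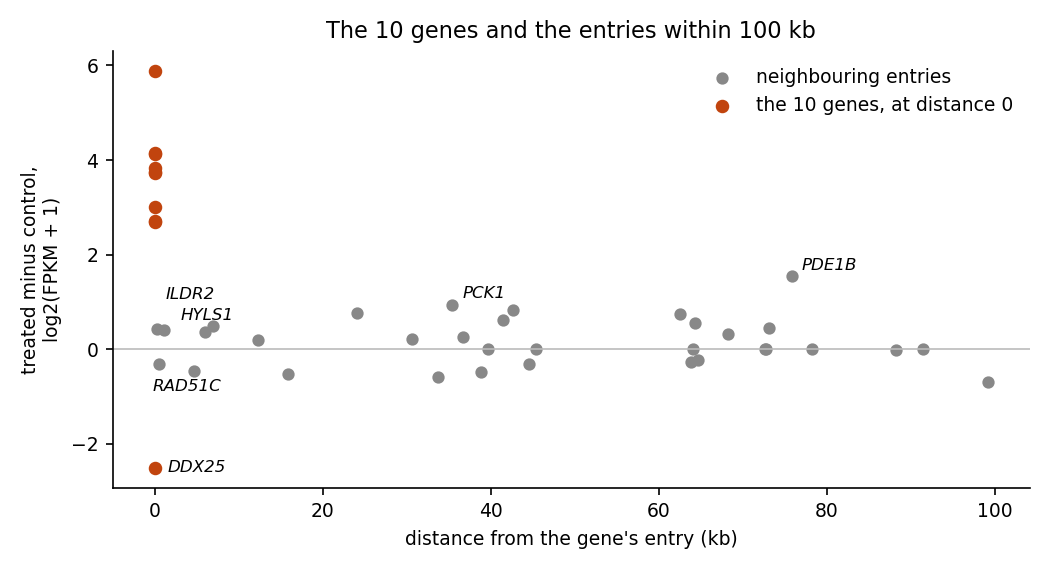
Treated minus control level, as log2(FPKM + 1), of the 33 neighbouring RefSeq entries (grey) against their distance from the nearest end of the gene's entry in kb, with the 10 genes in red at distance 0. Apart from PDE1B the neighbours lie within about 1 unit of 0, and the 9 higher genes of the set lie between 2.68 and 5.89.

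Of 14 lncRNA loci within 100 kb of the 10 genes 0 were called, and 10 were at 0 in all groups. The share called over all lncRNA loci is not given here, so nothing is read from this count. The 3 nearest were TCONS_00020151, 1232 bases from DDX25 (0, 21.0 and 0 FPKM, with q = 1 per the authors' deposited table), TCONS_00017087, 1581 bases from RHOXF1 and at 0 in all groups, and TCONS_00019794, 8062 bases from DDX25 and at 0 in all groups. The locus nearest to DDX25 was thus above 0 in treated cells alone and had no call. How many fragments lie behind this value is not given here, so it is not read against the level of DDX25. Antisense RNAs annotated in RefSeq across DDX25 (DDX25-AS1), RHOXF1 (RHOXF1-AS1) and a part of GTSF1 (GPR84-AS1) have no entry of their own in the table. The libraries were directional per the labels, but whether strand was used in counting is not given in the sources used here, so RNA from these partners may be included in the values of the 3 genes. The same holds for TEX14, whose span in RefSeq is shared by the most genes without an entry of their own, among them SEPTIN4-AS1, LOC107985048, LOC105371842 and the protein-coding IGBP1C.

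The entries whose course over the 3 groups was most like that of DAZL were picked by the smallest Euclidean distance on log2(FPKM + 1) over the 3 group values. USP26 was the nearest (distance 0.52). KHDC1L followed (0, 12.3 and 1.31 FPKM, distance 0.55), then HLA-DMB, a subunit of the class II peptide loading protein (0, 11.6 and 1.19 FPKM, distance 0.56), DKK1, a secreted Wnt inhibitor (0.231, 14.3 and 1.42 FPKM, distance 0.57), and SSX1, a cancer-testis antigen (0.169, 22.6 and 1.55 FPKM, distance 0.71). Of these 5, USP26 and SSX1 are known from testis, and the others include genes of immune and developmental roles.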

How the data were processed

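The 5 RNA-seq libraries (2 control, 2 treated, 1 recovery, all of HEK 293T) were grouped by the sample titles. The authors deposited FPKM values, 1 per entry and group with replicates combined, and a q-value for treated and for recovery against control, per the file headers. Cufflinks, Cuffdiff and the builds hg19 and mm9 are listed in the submitters' processing notes. Since the cells are human, positions were read as hg19. For the aligner, annotation and Cuffdiff options the record is: not given in the sources used here. In 1 of 20221 RefSeq entries and 2 of 21627 lncRNA transcripts the cells were shifted, and these were left out. Transcripts of 1 lncRNA locus repeat the same values and count as 1 locus. RefSeq identifiers were matched to symbols with the RefSeq gene table (GRCh38.p14), 19665 of 20220 in all.

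A call is a q-value under 0.05 in the deposited table; its direction is the sign of the difference between group values, and unadjusted p-values were not used here. No test was added, since the spread between libraries is not in the tables. Log2 values are differences of log2(FPKM + 1) with a pseudocount of 1, which understates changes of low genes. Ratios to a value of 0 were left out. Total counts per library are not in the tables used here, so depth was read from the commonest ratio of low values between groups, and fragment numbers of up to 5 in the lowest group were searched within 0.02 fragments. Intervals of ratios are exact Clopper-Pearson intervals at 95%. Scripts used Python 3.11.15, pandas 2.3.3, numpy 2.4.6 and matplotlib 3.10.9 and were tested on simulated data.

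The members and lists were chosen with earlier results of these data known, so neither is independent evidence. Named in the text are all 10 genes, in each of the 11 other lists every gene called and then the 3 others with the highest treated FPKM, the 3 nearest lncRNA loci and the 5 entries most like DAZL; other names were picked as said beside them, and 1 gene that this rule names is not reported here. Alternatives were other q thresholds, pseudocounts of 0.1 and 0.5, an upper quartile and a quantile scaling, a filter at a mean of 0.5 FPKM and a window of 50 kb.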

Additional observations from a re-analysis of the deposited data

How the results depend on the processing

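At q under 0.01 in the authors' deposited table the number of the 10 genes called fell to 0 for higher in treated cells, and to 0 for higher and 0 for lower in recovery; at q under 0.10 all 3 counts were as reported. The median difference of the 10 genes for treated minus control was 6.12 with a pseudocount of 0.1, 4.60 with 0.5, 4.02 after upper quartile scaling and 3.55 after quantile scaling. For recovery minus control it was 4.13, 2.64, 2.03 and 1.63 in the same order, and for recovery minus treated -1.16, -1.09, -1.16 and -1.05. After quantile scaling 2 list medians changed sign: Sertoli and Leydig cells for treated (-0.0502) and meiosis for recovery (-0.0379). The filter at a mean of 0.5 FPKM, which leaves out the lowest genes of a list, moved the treated median of meiosis genes from 0.22 to 1.64, of testis regulators from 0.55 to 2.48, of germ cell fate from 0.21 to 0.71, of the piRNA pathway from 0.44 to 0.02 and of spermatid and sperm genes from 0 to -0.16. In recovery it moved meiosis from 0.09 to 0.98 and germ cell fate from 0.44 to 0.64. No difference of any of the 10 genes changed sign under the 120 alternatives computed for single genes. Upper quartile scaling moved the median treated difference of entries with a mean of 0.5 FPKM or more from 0.01 to 0.29, so differences of that size are within the choice of scaling. No paired analysis was possible because the tables give 1 value per group, and for the same reason the planned fits without single replicates were not run. Control values of 1 fragment limit the ratios of GTSF1, TDRD12 and TEX14, and with 1 library in recovery no spread can be given there.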

Other observations

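Regulators of germ cell fate, a list without any of the 10 genes, had 1 call in treated cells and the same gene called in recovery. LHX8, a homeobox gene of oocytes, was at 0, 3.32 and 3.99 FPKM for the same 3 groups, with q = 0.0147 for both comparisons in the authors' deposited table. Its recovery value, from 1 library, was a little above its treated value, and this difference was not tested. TFAP2C, a regulator of primordial germ cells, was at 3.89, 19.8 and 13.7 FPKM without a call. SOX17, which specifies human primordial germ cells, was at 0.948, 4.76 and 8.06 FPKM and CREM, a transcription factor of spermatids, at 28.8, 22.7 and 22.5 FPKM, both without a call. The median difference of the 17 genes with an entry was 0.21 for treated and 0.44 for recovery. Of these genes 7 were at 0 in control. Over all entries 0.603% were called higher in treated cells and 0.495% in recovery.

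DMC1, the meiotic recombinase, singled out once its values were known, had levels of 0.0984, 1.71 and 26.9 FPKM and had q = 0.939 for recovery in the authors' deposited table. TCONS_00027301, a lncRNA locus 27.82 kb from TDRD12 picked in the same way, was at 96.8, 573 and 346 FPKM, with q = 0.262 for treated and q = 0.401 for recovery in the authors' deposited table. TCONS_00017539, 14.82 kb from RHOXF1, was at 0, 0 and 32.6 FPKM with q = 1. The number of fragments behind its recovery value is not given here.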
